A study of Mus musculus with 55 samples.

Results

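The accessible regions described here are all the intervals in a pair of ATAC-seq region lists, the first called in livers of untreated wild type mice (WT) and the second in livers of mice labelled Setd8-LKO that had received TCPOBOP. No region was selected by its values. The WT list held 27307 regions and the Setd8-LKO list 23386, together 50693 of the 167831 regions that MACS2 lists in the series. A WT region sharing 1 bp or more with a Setd8-LKO region was called kept (19939 regions), and any other WT region lost (7368). Of the Setd8-LKO regions, 20028 were shared with WT and 3358 were gained, meaning that no WT region overlapped them. With equal numbers of regions, taking only the WT regions of highest −log10 p, 5021 were lost and 4925 gained. Of the 20052 overlapping pairs, 19778 were 1 to 1, so lists of equal length must give nearly equal counts. The comparison therefore does not say why lost regions outnumber gained ones.

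The study compared the chromatin of WT livers with that of livers whose hepatocytes lack Setd8 (gene Kmt5a), the enzyme that monomethylates histone H4 at lysine 20, after a mitogenic stimulus. ATAC-seq was carried out on nuclei of 3 untreated WT livers and of 5 Setd8-LKO livers taken 24 h after intraperitoneal TCPOBOP at 3 mg/kg, and RNA-seq on 5 untreated WT and 4 Setd8-LKO plus TCPOBOP livers. All mice were males of 45 to 50 days. Setd8-LKO mice were Setd8 lox/lox with exon 7 floxed and carried Alb-Cre, and the paper describes the inactivation as specific to hepatocytes. Whether the other cells of these whole-liver samples keep the gene was not checked here. Genotype and treatment change together and cannot be told apart here, because no ATAC-seq list of treated WT or untreated Setd8-LKO livers was analysed here. The labels call the WT mice untreated, while the methods name a corn oil vehicle, so whether they were injected is not known. Each group has a single list without values per liver, so no difference between the lists has a replicate check, and how the livers of a group were combined is not stated. Shares are therefore given with 95% intervals (Clopper-Pearson) for counting error alone, and without a test.

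ATAC-seq uses a transposase that inserts sequencing adapters where DNA is not wrapped around nucleosomes. Accessible regions mark the promoters of active genes and distal enhancers and insulators, where sequence-specific factors displace nucleosomes. In hepatocytes such factors include HNF4A and FOXA at liver enhancers, STAT5 downstream of growth hormone, and the nuclear receptor CAR, which TCPOBOP activates and which induces drug-metabolizing enzymes such as Cyp2b10.

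The targeted gene did not follow the label in the RNA counts. Kmt5a had 613, 567, 761, 563 and 715 normalized counts in the WT livers and 1341, 1465, 1338 and 1313 in those labelled Setd8-LKO, without overlap. It was higher in the latter, with a log2 fold change of 1.08 ± 0.14 (SE, Benjamini-Hochberg adjusted p = 0.000445 by edgeR's quasi-likelihood model), but was not called with DESeq2 size factors. Since these counts sum all exons, they leave the deletion of the floxed exon unchecked. The groups are named by their labels throughout. The Kmt5a promoter held a kept region, with a fold enrichment of 5.76 in WT and 5.39 in the list labelled Setd8-LKO. Fold enrichment is the signal of a region over the local background that MACS2 computes. In the broad format of these lists, it and −log10 p are averages over the region.

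Regions whose sequence carried the motifs that, outside promoters, differed most in share between gained and lost regions are shown first. They are the gained regions of highest fold enrichment with an AP-1 match and the lost ones with a STAT match, among regions outside promoters and exons. AP-1 is the dimer of Fos and Jun proteins, and its search letters TGANTCA read the same on both strands. STAT factors act downstream of growth hormone and cytokines, and their search letters TTCNNNGAA also read the same on both strands. Each line gives the 200 bases around the region's centre, 5′ to 3′ on the plus strand of RefSeq's GRCm38 (mm10), with the motif in capitals. Gained 1 is chr2:120672072-120672271 in an intron of Stard9 (fold enrichment 13.5), gained 2 is chr1:34399744-34399943, intergenic and nearest to Ccdc115 (12.6), and gained 3 is chr3:66079212-66079411 in an intron of Veph1 (12.2). Lost 1 is chr9:4300605-4300804 in an intron of Aasdhppt (15.0 in WT, 2 matches), lost 2 is chr6:24207980-24208179, intergenic and nearest to Slc13a1 (13.0), and lost 3 is chr3:35918274-35918473 in an intron of Dcun1d1 (13.0).
gained 1: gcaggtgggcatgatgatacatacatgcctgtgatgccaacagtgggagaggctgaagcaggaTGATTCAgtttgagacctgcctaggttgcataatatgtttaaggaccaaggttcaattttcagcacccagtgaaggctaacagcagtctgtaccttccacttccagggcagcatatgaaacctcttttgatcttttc
gained 2: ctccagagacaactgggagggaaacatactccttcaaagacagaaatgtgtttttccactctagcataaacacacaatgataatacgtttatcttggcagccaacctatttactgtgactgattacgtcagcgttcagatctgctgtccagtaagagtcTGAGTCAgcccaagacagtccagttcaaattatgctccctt
gained 3: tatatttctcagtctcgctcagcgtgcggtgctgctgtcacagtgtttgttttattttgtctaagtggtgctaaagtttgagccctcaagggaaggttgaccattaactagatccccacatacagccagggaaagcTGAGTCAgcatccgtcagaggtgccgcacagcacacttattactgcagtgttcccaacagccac
lost 1: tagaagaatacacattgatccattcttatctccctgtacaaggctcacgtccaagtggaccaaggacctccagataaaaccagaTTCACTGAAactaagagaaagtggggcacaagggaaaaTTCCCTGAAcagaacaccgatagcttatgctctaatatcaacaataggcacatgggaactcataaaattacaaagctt
lost 2: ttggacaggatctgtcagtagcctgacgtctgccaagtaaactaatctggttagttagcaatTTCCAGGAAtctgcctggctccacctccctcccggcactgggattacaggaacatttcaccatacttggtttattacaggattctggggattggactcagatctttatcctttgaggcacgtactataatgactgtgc
lost 3: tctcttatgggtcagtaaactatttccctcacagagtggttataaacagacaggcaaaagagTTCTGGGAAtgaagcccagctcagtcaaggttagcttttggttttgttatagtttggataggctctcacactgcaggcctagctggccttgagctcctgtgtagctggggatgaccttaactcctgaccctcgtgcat

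A further pair of sequences comes from the promoters that bear most on the gained regions. Ifi27l2b, an interferon-inducible gene, held the gained region of highest fold enrichment in the list (15.2, chr12:103457201-103457376). Cyp2b10, the classical CAR target, held a gained region of low fold enrichment (3.35, chr7:25897430-25897690, −log10 p 27.5) beside the largest RNA rise among genes with a gained promoter region. The stretches are the 200 bases just upstream of the annotated start, chr12:103457224-103457423 for Ifi27l2b on the minus strand and chr7:25897420-25897619 for Cyp2b10 on the plus strand, written 5′ to 3′ on the gene's strand. Capitals mark AP-1 letters. None of the 14 motifs searched was found in the Cyp2b10 stretch, which says only that these letters are not in this window.
Ifi27l2b: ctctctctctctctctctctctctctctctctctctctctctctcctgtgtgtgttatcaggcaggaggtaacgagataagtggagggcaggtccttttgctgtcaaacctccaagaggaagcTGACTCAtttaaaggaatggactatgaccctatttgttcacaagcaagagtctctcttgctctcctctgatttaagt
Cyp2b10: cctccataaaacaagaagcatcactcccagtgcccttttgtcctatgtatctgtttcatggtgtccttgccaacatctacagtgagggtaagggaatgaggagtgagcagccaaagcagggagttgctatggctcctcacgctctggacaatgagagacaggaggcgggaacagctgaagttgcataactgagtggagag

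Strong and long WT regions were found again more often than weak and short ones. Of the 323 WT regions with a −log10 p under 17, 28.5% (23.6 to 33.7%) were kept, and of the 4235 regions at 40 or above, 97.0% (96.5 to 97.5%). By length, the kept share went from 38.0% in the shortest decile of the WT list to 93.7% in the longest. Setd8-LKO regions followed the same order, from 62.4% shared under a −log10 p of 17 to 98.7% at 40 or above, and from 59.7% to 97.99% over the deciles of length. Fold enrichment ordered the lists less. The kept share of WT regions went from 57.5% to 84.1% over its deciles, whereas the shared part of Setd8-LKO regions stayed between 81.8% and 88.2% without an order.

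**Figure D1:**
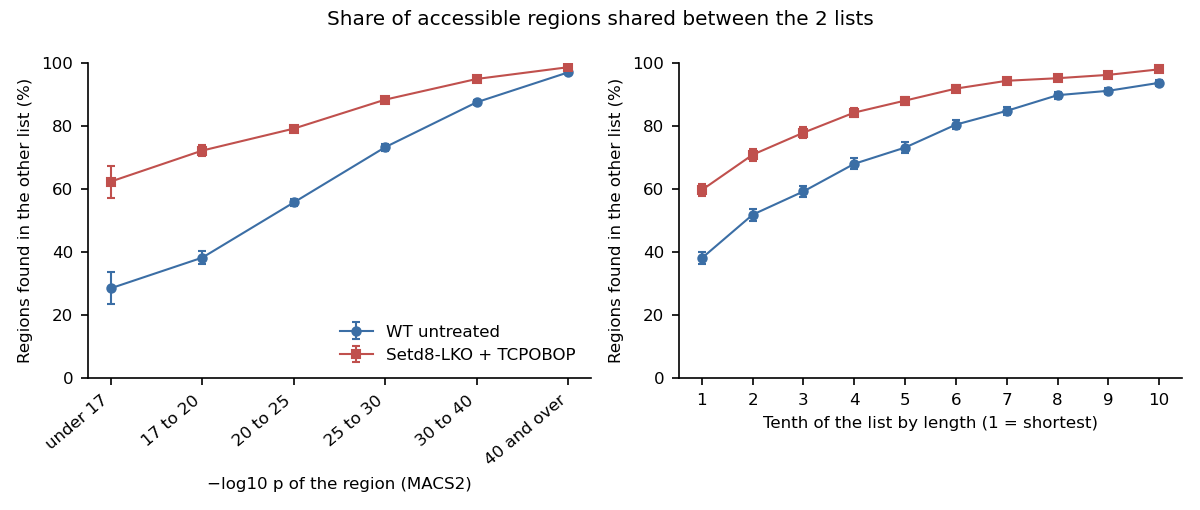
Share of accessible regions found in the other list (%, vertical axes) by band of −log10 p (left) and by decile of length (right), for WT (circles) and Setd8-LKO (squares), with 95% Clopper-Pearson intervals. Both lists rise from the weakest and shortest regions, 28.5% and 62.4% under a −log10 p of 17, to 97.0% and 98.7% at 40 or above.

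Lost and gained regions were shorter and less well supported than kept ones. The median length was 220 bp for lost and 185 bp for gained regions, against 330 bp and 284 bp for kept regions in WT and Setd8-LKO coordinates. A −log10 p under 20 was found in 22.9% of lost and 26.1% of gained regions, against 4.98% and 10.7% of kept ones. Their fold enrichment was not low in the same way, with medians of 7.01 for lost, 7.49 for gained, 7.75 for kept in WT and 7.18 for kept in Setd8-LKO. The lists also differed as wholes. The strongest −log10 p was 93.3 in WT and 73.2 in Setd8-LKO, the total length was 9414415 bp and 7310512 bp, and the number of reads behind either list is not known.

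Lost and gained regions were rarely shifted copies of a region in the other list. From the centre of a gained region, the centre of the nearest WT region was a median of 14546.5 bp away, and 11.2% had one within 2000 bp. For lost regions the nearest Setd8-LKO region was a median of 14048.5 bp away, and 10.7% had one within 2000 bp. Counting regions within 500 bp of each other as shared raised the kept share of WT regions from 73.0% to 73.8%.

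Where both lists had a region, its fold enrichment was nearly the same. The lists formed 20052 overlapping pairs. The median log2 ratio of fold enrichment, Setd8-LKO over WT, was −0.10, with quartiles at −0.22 and 0.02, and 29.5% of pairs were higher in Setd8-LKO. No pair was higher by 1 or more on the log2 scale, and 3 were lower by as much. Across pairs Pearson's r of log2 fold enrichment was 0.891, a description in which the pairs share the genome's local background and base composition. Length differed more, since 70.6% of pairs were shorter in Setd8-LKO and the median log2 length ratio was −0.16. At promoters 79.0% were shorter, and elsewhere 64.5%.

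**Figure D2:**
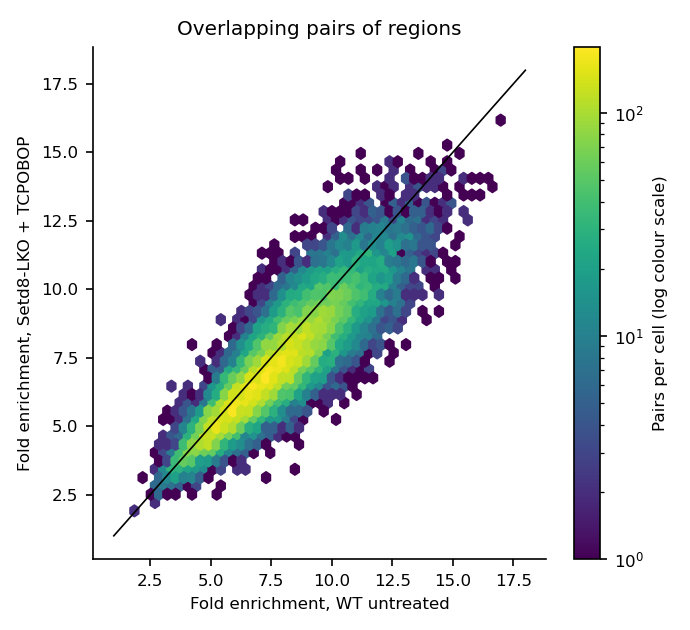
Fold enrichment of the 20052 overlapping pairs of regions, WT on the horizontal and Setd8-LKO plus TCPOBOP on the vertical axis, with colour giving the number of pairs per cell on a log scale and the line marking equality. The pairs lie along the line, somewhat below it, with a median log2 ratio of −0.10.

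Every autosome had fewer regions in the Setd8-LKO list, whereas chromosome X had nearly equal numbers. Chromosome 11, which is rich in genes, held 1956 WT and 1534 Setd8-LKO regions (−21.6%) and had the lowest kept share of the autosomes and X, at 69.6% (67.5 to 71.7%). The difference was −18% on chromosome 19 and −8.73% on chromosome 13, the smallest of the autosomes. Chromosome X held 401 and 399 regions, with 82 lost and 79 gained. Of the autosomes and X, its kept share was the highest, 79.6% (75.3 to 83.4%), and the shared part of its Setd8-LKO regions the lowest, 80.2% (75.9 to 84.0%). Of the autosomes and X, the X was also sparsest, with 2.34 WT regions per Mb against 16.0 on chromosome 11, and its overlapping pairs had a median log2 ratio of −0.09, close to the −0.10 of the autosomes. Chromosome Y held 3 and 1 regions, the mitochondrial genome 2 and 3, and unplaced scaffolds 7 in each list.

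**Figure D3:**
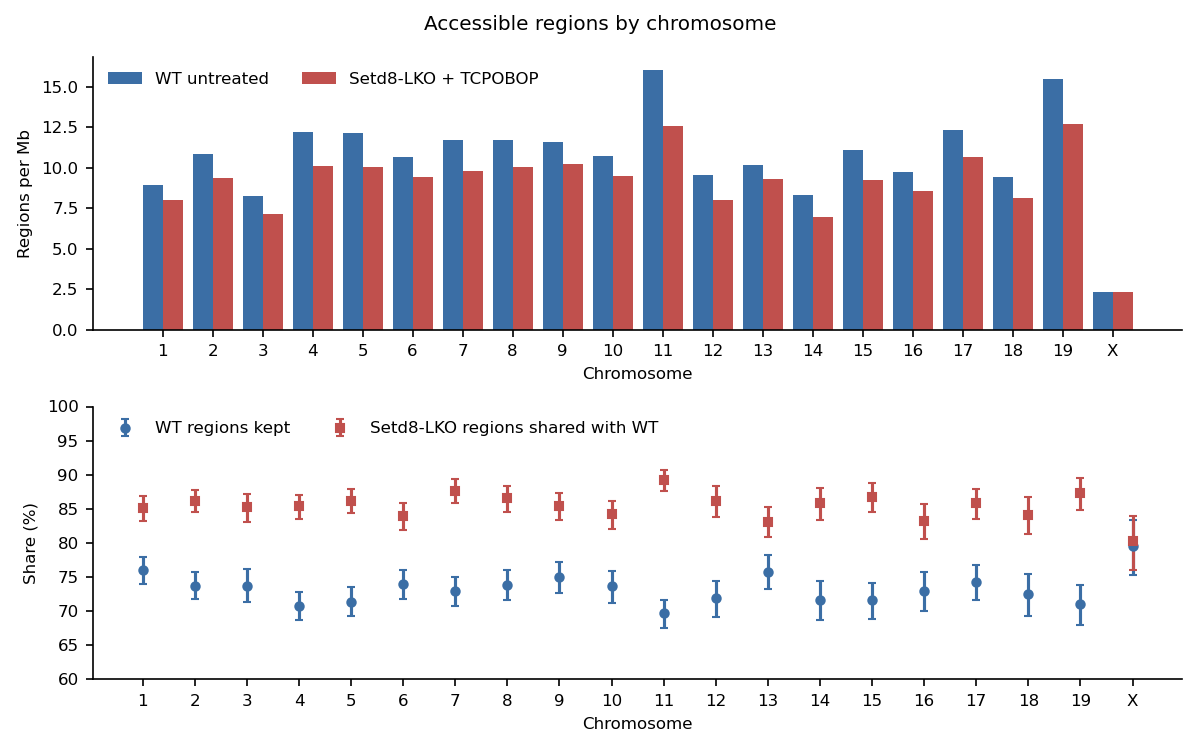
Accessible regions per Mb in each list (upper panel) and share of regions found in the other list (%, lower panel, axis from 60 to 100, 95% Clopper-Pearson intervals) by chromosome. Chromosome 11 shows the lowest share of WT regions kept (69.6%) and chromosome X the highest (79.6%).

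Windows of 1 Mb were ranked by the difference in number of regions, not in share. This rule favours falls in windows with many WT regions. It therefore cannot tell whether gene-dense windows lost a larger share of their regions than others. The largest fall was at chr10:80000001-81000000 with 55 protein-coding genes (62 to 42 regions). Next were chr7:45000001-46000000 with 69 genes (45 to 27) and chr11:101000001-102000000 with 44 (58 to 40). In the windows just named, in that order, 13, 10 and 12 of the lost regions lay at promoters. The largest rise was at chr6:37000001-38000000, from 16 to 25 regions with none lost. That window holds Creb3l2 and Trim24, which encode a transcription factor and a chromatin reader and were both called higher in RNA, as were 50.7% of all genes tested, with 33.9% called lower.

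The next largest rise was among histone genes. At chr13:21000001-22000000, which holds 18 histone genes, the count went from 26 to 34, and Hist1h4j, a histone H4 gene, had a gained promoter region and was called higher in RNA. A further 4 windows shared a rise of 7 regions. In chr13:23000001-24000000 (34 to 41), which holds 31 histone genes, 7 of them were called higher in RNA. Slc17a2 and Slc17a3 in the same window were called lower. Higher calls in windows of rising counts are to be read beside the 50.7% of all genes tested. How many of the histone genes were tested was not counted. In chr8:89000001-90000000 (11 to 18), Sall1, the only protein-coding gene there and a zinc finger factor, was called higher. In chr4:60000001-61000000 (7 to 14) and chr4:61000001-62000000 (13 to 20), all protein-coding genes are Mup genes, which encode major urinary proteins, and 10 of 10 and 4 of 8 were called lower in RNA, beside 33.9% of all genes tested. Mup genes are near-identical copies, so regions and counts there are uncertain because reads may be assigned to the wrong copy or removed. The longest gained region, 1227 bp at chr4:61591217-61592443, covered exons of Mup17.

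Lost and gained regions differed in where they lay. A promoter, taken as 1000 bp on either side of an annotated transcript start, was touched by 41.8% of kept regions, 32.0% (31.0 to 33.1%) of lost and 15.8% (14.6 to 17.1%) of gained ones, the last being 27.8% when sharing required a reciprocal overlap of 50%. Introns held 29.8%, 35.2% and 44.5%, and intergenic sequence 23.9%, 26.9% and 33.9%. The median distance from the region's centre to the nearest protein-coding start was 5632 bp for kept, 7635 bp for lost and 16058 bp for gained regions.

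The strongest and longest regions of each kind are named here. Among kept regions the strongest lay at the promoter of Kifap3, a kinesin-associated protein (chr1:163779377-163779694, 16.1 in Setd8-LKO), and carried H3K27ac in both groups. The other 4 of the 5 strongest were intergenic, with 1 on an unplaced scaffold. All 5 of the strongest lost regions were outside promoters, led by chr11:38618795-38619023, far from Tenm2 (fold enrichment 17.2, the highest of either list), and including the intron of Aasdhppt printed above. Of the 5 strongest gained regions, 2 were at promoters, those of Ifi27l2b and of the unnamed gene Gm13393 near Ttf1 (14.6).

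The longest regions had fold enrichments below the medians of their lists. An average over a region is not independent of its length, so this order was not read as a result. The longest lost ones covered exons of Serpina3m (1732 bp, 2.44), a serine protease inhibitor, exons of Cyp4a32 (1483 bp, 3.52), a fatty acid hydroxylase, and intergenic sequence near Serpina1a (1296 bp, 3.91). The longest kept one, 4558 bp with a fold enrichment of 1.94, lay in the mitochondrial genome, which has no nucleosomes. The next lay over exons of Amn1 (1974 bp) and between genes beyond Nr2f2 (1468 bp). After Mup17, the longest gained regions lay near Man2a1 (1094 bp) and in an intron of Ginm1 (948 bp).

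H3K27ac, the acetylation found at active promoters and enhancers, covered lost and gained regions less often than kept ones. The study mapped it in the same groups. H3K27ac of the same genotype lay on 49.2% of kept, 31.8% of lost and 15.2% of gained regions, the last being 29.9% with the reciprocal overlap. Outside promoters, WT H3K27ac overlapped 26.0% (25.2 to 26.8%) of kept and 13.2% (12.2 to 14.1%) of lost regions, and Setd8-LKO H3K27ac overlapped 9.67% of the lost ones. Gained regions outside promoters showed the opposite order, with 5.73% (4.90 to 6.65%) in the WT list of H3K27ac and 10.0% (8.93 to 11.2%) in the Setd8-LKO list. At promoters, the mark of the same genotype lay on 81.5% of kept, 71.5% of lost and 42.7% of gained regions. Lost promoter regions overlapped Setd8-LKO H3K27ac almost as often as WT H3K27ac, at 70.7% and 71.5%.

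Architectural factors and lamina contacts were compared in the same way. CTCF, the insulator protein, lay on 18.97% of kept Setd8-LKO regions and on 4.85% (4.15 to 5.64%) of gained ones, both by the CTCF list labelled Setd8-LKO. Smc3, a cohesin subunit, lay on 33.5% and 7.89%. Outside promoters CTCF of the same list lay on 6.34% of kept and 3.15% (2.54 to 3.86%) of gained regions, and Smc3 on 7.66% and 3.18% (2.57 to 3.90%). By the WT lists, over all places, CTCF lay on 5.57% and 2.77% and Smc3 on 14.4% and 6.94% of the same regions. At promoters CTCF lay on 36.6% of kept and 13.9% of gained regions by the Setd8-LKO list, and on 6.78% and 3.77% by the WT list. The study reports that most CTCF sites new in Setd8-LKO are weaker and lack the canonical motif. It proposes that CTCF and Smc3 bind non-specifically at many new sites. Lamin A/C islands of WT, the stretches that touch the nuclear lamina, contained 2.33% of kept Setd8-LKO, 2.46% of lost and 4.88% (4.18 to 5.67%) of gained regions. The heterochromatin mark H4K20me3 in Setd8-LKO covered 2.39%, 2.39% and 2.50%.

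In base composition gained regions stood apart from kept and lost ones. Their mean GC content over 200 bp at the centre was 48.7%, against 53.6% for kept and 52.5% for lost regions, and they held 3.19 CpG dinucleotides per window against 6.81 and 5.74. Gained regions also held fewer promoters. Outside promoters GC was 49.6% for kept, 49.2% for lost and 47.9% for gained regions, and repeats filled 9.09%, 10.7% and 11.3% of the windows.

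The AP-1 letters were most frequent in gained regions and the STAT letters in lost ones. Outside promoters, AP-1 was found in 15.7% (14.4 to 17.1%) of gained windows, 9.40% (8.88 to 9.95%) of kept and 6.45% (5.79 to 7.17%) of lost ones. In windows of the same size moved by 2000 bp the shares were 5.98%, 5.84% and 5.65%. STAT was found in 11.1% (10.2 to 12.0%) of lost, 6.86% (6.41 to 7.34%) of kept and 5.24% (4.44 to 6.12%) of gained windows, against 6.15%, 6.19% and 6.51% in moved windows. STAT in gained regions was below its moved windows, and AP-1 in lost regions was near its own. Lost and gained regions had similar median −log10 p, 23.2 and 22.6. Over all regions, promoters included, AP-1 was in 14.9% of gained, 7.11% of kept and 5.38% of lost windows. A match is a description of the sequence and not a bound site.

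**Figure D4:**
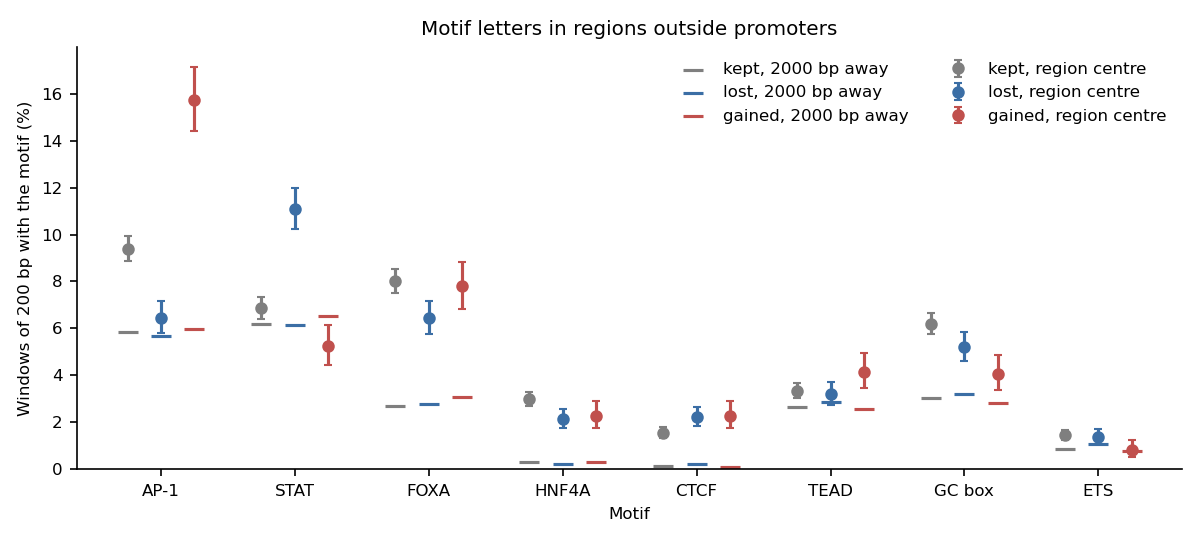
Share of 200 bp windows outside promoters that hold each motif (%, vertical axis) in kept, lost and gained regions, as points with 95% Clopper-Pearson intervals, and in windows moved by 2000 bp, as bars. AP-1 is highest in gained regions (15.7%) and STAT in lost ones (11.1%), while the moved windows lie between 5.65% and 6.51% for both.

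The letters of both liver factors were above the moved windows in every kind of region. Outside promoters, FOXA (TGTTTAC) was in 8.02% of kept, 6.43% of lost and 7.78% of gained windows, against 2.71%, 2.76% and 3.08% of moved ones. HNF4A (CAAAGTCCA) was in 2.97%, 2.12% and 2.26%, against 0.293%, 0.220% and 0.318%. FOXA proteins open liver chromatin in development, and HNF4A maintains hepatocyte identity. The CTCF consensus was in 1.53%, 2.22% and 2.26%, and the TEAD letters (ACATTCC), bound by partners of the Hippo effector Yap, in 3.34%, 3.20% and 4.14%. Letters typical of promoters ran the other way. The GC box (GGGCGG) was in 41.7% of kept, 37.3% of lost and 22.4% of gained promoter windows, and the ETS letters (CCGGAAG) in 12.4%, 8.94% and 4.14%.

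Among gained regions outside promoters, those with and without the AP-1 letters had overlapping intervals in both other readouts. Setd8-LKO H3K27ac overlapped 12.8% (9.85 to 16.3%) of the 445 with the letters and 9.49% (8.34 to 10.7%) of the 2382 without. The nearest protein-coding gene within 100 kb was called higher in RNA for 15.1% (11.6 to 19.04%) and 12.4% (11.0 to 13.9%). For lost regions, the nearest gene was called lower for 12.8% (9.88 to 16.1%) of those with STAT letters and 12.2% (11.2 to 13.2%) of those without. These intervals overlap too.

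The RNA of genes near these regions comes from a table of 3900 genes that the study selected on these same libraries, so it is not an independent sample of genes. Of the 3807 that passed the filter on low counts, 1932 (50.7%) were called higher and 1289 (33.9%) lower in Setd8-LKO plus TCPOBOP than in untreated WT (edgeR, adjusted p below 0.05 with a log2 fold change beyond 1 in either direction). The median log2 fold change was 1.19 and 59.98% of calls were higher. With size factors that DESeq2 took from the listed genes the median was 0.35, and the split turned to 881 higher and 1504 lower (36.9% higher). Directions are therefore relative to the authors' scaling. In bulk liver, fewer cells of a type and less RNA per cell cannot be told apart. The paper reports that most hepatocytes were lost in treated Setd8-LKO livers, where small mononuclear cells were enriched. Remaining hepatocytes carried extra sets of chromosomes. What that change in cells contributes to the regions and the RNA was not tested. All 3221 called genes had the same direction within each of the runs that the column headers name, A and B, of which A holds 1 Setd8-LKO library. The genes were called on these same libraries, so equal directions are not an independent check. Raw counts summed over the listed genes were 5734065 to 12780869 per library.

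Of the genes with a gained promoter region, a larger share was called higher than of the listed genes at large, while genes with a lost promoter region resembled those whose promoter had a region in both lists. Promoters with a region in each list are called kept here. Of 55450 annotated genes, 9797 had promoter regions in both lists, 2081 in WT alone and 419 in Setd8-LKO alone. Among the tested genes with a gained region alone, 72 of 100 (62.1 to 80.5%) were called higher and 18 lower, beside the 50.7% and 33.9% of all tested genes. Among those with a lost region alone, 156 of 342 (45.6%, 40.2 to 51.1%) were called higher and 145 (42.4%, 37.1 to 47.8%) lower. Genes with kept regions had 627 higher and 602 lower of 1348 (46.5% and 44.7%). The median log2 fold change was 1.62, 1.04 and 1.02 for gained, lost and kept, beside 1.19 over all tested genes. With DESeq2 the higher calls numbered 41, 59 and 274 and the lower calls 23, 160 and 655.

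The shares were also taken by distance, over regions rather than genes. Of the 372 gained regions within 1 kb of a protein-coding start, 20.7% (16.7 to 25.2%) had a nearest gene called higher and 6.99% (4.62 to 10.1%) one called lower. For lost regions at that distance the shares were 7.85% and 9.13%, and for kept ones 6.93% and 7.33%. From 1 to 100 kb, 12.8% (11.6 to 14.2%) of gained regions had a nearest gene called higher and 7.12% lower. Lost regions at that distance had 7.71% higher and 12.4% (11.5 to 13.4%) lower, and kept ones lay between, at 9.41% and 10.3%. Several regions can share a nearest gene, so they are not independent. At overlapping pairs the size of the change in fold enrichment was small in each class. The median log2 ratio was −0.12 over 646 pairs at promoters of genes called higher, −0.05 over 671 at those called lower and −0.10 over 7281 at genes not in the table.

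Of 21951 protein-coding genes, 35.9% had a kept promoter region, 7.22% a lost one, 1.16% a gained one and 55.8% none, and the lists of genes below are to be read beside these shares. RNA calls of the lists are to be read beside the 50.7% called higher and 33.9% lower of all 3807 tested genes. With DESeq2 881 of these were called higher and 1504 lower. For a named promoter the region of highest −log10 p in each list is given. Of the lists of genes examined, drug metabolism had the largest share of gained promoter regions. Of 19 genes of the CAR response and drug metabolism, 3 had a gained promoter region (Cyp2b10, Cyp3a11 and Gstm3), 1 a lost one (Cyp2c29), 5 kept ones and 10 none. All 15 listed in the RNA table were called higher, 12 of them also with DESeq2. Cyp2b10, a cytochrome P450, had 27.6, 25.1, 69.9, 27.8 and 106 normalized counts in the WT libraries and 35766, 31592, 66038 and 55164 in the Setd8-LKO ones. The groups were far apart, with a log2 fold change of 9.84 ± 0.61 (SE, adjusted p = 6.27e-06). The nearest WT region was centred 2842 bp from an annotated start of the gene.

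The gained regions of Gstm3 and Cyp3a11 were also of low fold enrichment. Gstm3, a glutathione S-transferase, had 2223, 2403, 3173, 1871 and 5255 counts in WT and 72035, 80176, 59888 and 91487 in Setd8-LKO, without overlap (log2 fold change 4.67 ± 0.34, adjusted p = 1.42e-05). Its gained region at chr3:107969132-107969318 had a fold enrichment of 4.26. Cyp3a11, the main mouse cytochrome P450 of drug oxidation, gained a region of 3.09 at chr5:145879755-145879967, although a WT region was centred 1434 bp from a start. Its counts were 49706, 75969, 95301, 88069 and 120069 in WT and 181781, 197699, 256946 and 236704 in Setd8-LKO (log2 fold change 1.35 ± 0.28, adjusted p = 0.0106), a call that was lost with DESeq2.

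Cyp2c29, a CAR-inducible epoxygenase, went the opposite way in its region. It lost a region at chr19:39286926-39287090 (6.98 in WT), which lies at the start of an annotated transcript inside the gene. Its counts were 23391, 27334, 18188, 17700 and 25339 in WT and 230662, 232482, 287271 and 285319 in Setd8-LKO (log2 fold change 3.53 ± 0.24, adjusted p = 9.69e-06), with the groups far apart. Akr1b7, an aldo-keto reductase, kept its promoter region with 12.8 in WT and 8.89 in Setd8-LKO, while its log2 fold change was 7.44 ± 0.38 (adjusted p = 2.35e-06). Por, the electron donor of the cytochromes P450, also kept regions, the strongest at a start inside the gene (5.14 and 3.38), and was called higher (2.17 ± 0.20, adjusted p = 6.00e-05). Neither region was higher in fold enrichment in Setd8-LKO. Cyp2b9, a neighbour of Cyp2b10 in the same family, had no promoter region, but its nearest region was 4432 bp away in Setd8-LKO and 90647 bp in WT. Nr1i3, which encodes CAR itself, kept its promoter region at 5.39 and 5.31 and was not in the RNA table.

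Of 26 genes of cell division, 17 had a kept promoter region, 2 a lost one (Cenpe and E2f1), 1 a gained one (Mki67) and 6 none. In RNA 24 were called higher and none lower by edgeR, beside 50.7% and 33.9% of all tested genes, and 23 higher by DESeq2. Mki67, the proliferation marker, had 19.1, 12.5, 25.7, 16.5 and 64.3 counts in WT and 604, 707, 495 and 189 in Setd8-LKO (log2 fold change 4.17 ± 0.52, adjusted p = 0.000365). Its gained region at chr7:135716462-135716769 had a fold enrichment of 7.42. Ccna2 and Cenpf, a cyclin and a kinetochore protein, kept strong regions of 13.8 and 12.9 and of 13.1 and 13.3, and Cdc20, an activator of the anaphase-promoting complex, kept 7.80 and 7.09 with a log2 fold change of 5.13 in RNA. Their RNA was called higher while the fold enrichments stayed close. Cenpe, a kinetochore motor, had its lost region (10.3 in WT) at the start of a transcript inside the gene, and its counts were 1.06, 3.76, 8.23, 3.09 and 9.98 in WT and 190, 163, 216 and 87.2 in Setd8-LKO.

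Of 20 targets of p53 and secreted factors of senescence, 9 had kept promoter regions, 1 a lost one (Trp53inp1), 1 a gained one (Ccl2) and 9 none. Of the 12 listed in RNA, 10 were called higher, 6 of them with DESeq2, beside 50.7% of all tested genes by edgeR. Cdkn1a, the p53-induced inhibitor of cyclin-dependent kinases, had regions of 5.41 and 5.48 at a start inside the gene beside a log2 fold change of 4.94 ± 0.45 (adjusted p = 5.14e-05). Ccl2, which encodes a chemokine for monocytes, gained a region of 8.62 at chr11:82035429-82035622. Its counts were low, 5.30, 3.76, 9.26, 12.4 and 12.2 in WT and 38.2, 36.0, 17.3 and 37.6 in Setd8-LKO, and it was called higher by edgeR (1.88 ± 0.38, adjusted p = 0.00975) but not by DESeq2.

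AP-1 subunits were named because of the motif. Among 10 subunit genes, 4 had kept promoter regions, 3 lost ones (Junb, Jund and Maff) and 3 none, and none gained a region. Jun had 238, 230, 344, 246 and 197 counts in WT and 1686, 1733, 1844 and 1608 in Setd8-LKO (log2 fold change 2.77 ± 0.17, adjusted p = 6.45e-06). Fosl2 (2.27 ± 0.22, adjusted p = 7.67e-05) and Atf3 (3.97 ± 0.37, adjusted p = 6.34e-05) were also called higher. Jund lost its region of 4.28 while its counts were higher, 1464, 1525, 1366, 1770 and 1336 in WT and 2707, 2498, 3822 and 3256 in Setd8-LKO (1.04 ± 0.17, adjusted p = 0.00195), though not called by DESeq2. Fos was listed in RNA and not called (1.46, adjusted p = 0.519), and it kept its region at 5.35 and 5.22.

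Of 13 growth hormone targets and genes of the male liver, 6 had kept promoter regions, 1 a lost one (Slco1a1) and 6 none. In RNA 10 were called lower and none higher by edgeR, beside 33.9% and 50.7% of all tested genes, with 12 lower by DESeq2. Hsd3b5, a male-specific steroid dehydrogenase, had 6989, 8072, 2739, 2914 and 2579 counts in WT and 5.34, 2.35, 4.51 and 1.71 in Setd8-LKO (log2 fold change −10.32 ± 0.63, adjusted p = 5.88e-06). Its kept region had a fold enrichment of 6.51 in WT and 7.74 in Setd8-LKO. Egfr, the receptor for epidermal growth factor, had 3.84 and 5.44 while its RNA was called lower (log2 fold change −3.64). Ghr, the growth hormone receptor (−2.36), had regions of 3.78 and 4.74 that did not overlap. Slco1a1, an organic anion transporter of male liver, had 9968, 9746, 7656, 6760 and 9028 counts in WT and 385, 337, 1045 and 286 in Setd8-LKO. It lost a region at chr6:141947780-141947938 (6.45), with a log2 fold change of −4.07 ± 0.41 (adjusted p = 0.000103).

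The remaining lists had few gained promoter regions. Of 18 progenitor and fetal genes, 1 had a kept region (Krt8), 3 lost ones (Sox9, Krt18 and Krt23) and 14 none. Of the 15 listed in RNA, 11 were called higher, 9 of them by DESeq2, beside 50.7% of all tested genes by edgeR. Among those higher were H19 and Igf2, imprinted fetal transcripts (log2 fold changes 7.35 and 5.84). The H19 counts were uneven in Setd8-LKO, at 5052, 4547, 73.7 and 310, against 1.253 to 46.6 in WT. The nearest regions to H19 were 40526 bp and 40535 bp away. Sox4, a progenitor transcription factor (4.49), had its nearest region 4787 bp away in Setd8-LKO and 79535 bp in WT. Of 14 genes of chromatin and the lamina, 8 had kept regions and 3 lost ones (Lmnb1, Lbr and Ctcf), and the 2 listed in RNA, Kmt5a and Lmna, were called higher by edgeR and not by DESeq2.

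Markers of cell types were checked against both lists. Of 20 hepatocyte genes, 10 had kept promoter regions, among them Hnf4a, the nuclear receptor of hepatocyte identity (4.202 and 5.77), and Apob, the lipoprotein gene (4.51 and 4.90). Pck1, Foxa2 and Nr1h4 were among those with lost regions, 0 had gained ones and 6 had none. Of the 8 listed in RNA, 7 were called lower and 0 higher, beside 33.9% and 50.7% of all tested genes. Alb and Apoa1, which encode the main plasma proteins of the liver, were among those without a promoter region. Their nearest regions lay 3490 bp and 1982 bp away in WT. Of 8 Kupffer cell, 8 lymphocyte and 5 neutrophil markers, none had a promoter region in either list, which was also so for 55.8% of all protein-coding genes. Of 8 endothelial markers, Stab2 and Tek had lost regions, and so did Sox9 among the cholangiocyte markers. Of 8 stellate cell markers, Reln alone had a gained region. The regions of Stab2 and Reln lay at transcript starts inside these genes. Among 10 genes of other tissues, Ins2 had a kept one. In RNA, 3 stellate markers (Dcn, Pdgfrb and Col1a1), 4 cholangiocyte markers and 1 Kupffer marker (Marco) were called higher by edgeR, against 1, 3 and 0 by DESeq2. The 3 listed stellate markers summed to 1699 to 2180 normalized counts in WT and 3816 to 7383 in Setd8-LKO, and the 5 listed cholangiocyte markers to 423 to 686 and 1617 to 7426. The 2 listed neutrophil markers summed to 6.26 to 99.8 and 71.5 to 121. None of the endothelial markers was in the RNA table. The part of these cell types in the results was not tested.

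The genes of largest RNA change among those with a promoter region in a single list set regions and RNA side by side. Of the 10 with a gained region alone, all were higher in Setd8-LKO, by edgeR and by DESeq2, and their libraries did not overlap, which the rule required. Besides Cyp2b10 and Gstm3 they were Pnliprp1, Prelid2, Krt4, Clcf1, Rnf138rt1, Eda2r, Ifi27l2b and Myo7b. Ifi27l2b had 58.3, 65.1, 67.9, 60.7 and 88.7 counts in WT and 1423, 1416, 1623 and 1758 in Setd8-LKO (log2 fold change 4.51 ± 0.17, adjusted p = 8.27e-07). Eda2r, a p53-regulated receptor of the tumour necrosis factor family, gained a region of 9.79 at chrX:97377192-97377351 and had 4.24, 15.0, 4.11, 7.21 and 7.76 counts in WT against 236, 199, 179 and 214. No WT region was centred within 674552 bp of its start. Clcf1, a cytokine of the interleukin 6 family, gained a region of 560 bp (6.69) and had 19.1, 21.3, 26.7, 35.0 and 28.8 counts against 865, 835, 857 and 647. Pnliprp1, a lipase-related gene, was at 0 in all 5 WT libraries and at 45.0, 89.3, 39.9 and 98.3 in Setd8-LKO, at least 104-fold higher against a floor of 3 counts over the WT group.

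Of the 10 with a lost region alone, 5 were lower and 5 higher. Those lower were Clec2h, Sucnr1, Gm12718, Ccl27a and Pitx3. Clec2h, a C-type lectin, had 688, 462, 551, 52.5 and 345 counts in WT and 1.53, 0, 0 and 0 in Setd8-LKO, and lost a region of 8.56 at chr6:128662240-128662567. Sucnr1, the succinate receptor, had 503, 768, 324, 129 and 535 against 9.92, 7.83, 9.03 and 12.0 (log2 fold change −5.53 ± 0.52, adjusted p = 6.34e-05). Ccl27a, a chemokine gene, had 108, 149, 141, 105 and 202 against 3.82, 3.13, 4.51 and 3.42 (−5.20 ± 0.31, adjusted p = 5.27e-06). Those higher were Lif, Ly6d, Psrc1, Prrg4 and Cenpe. Ly6d, a surface protein, had 8.49, 10.0, 29.8, 13.4 and 11.1 counts in WT and 5445, 4558, 2645 and 4654 in Setd8-LKO, and lost a region of 6.49. A Setd8-LKO region was centred 1107 bp from its start, outside the promoter limit. Lif, a cytokine of the interleukin 6 family, was at 0 in the 5 WT libraries and at 52.7, 69.7, 13.5 and 46.2, at least 69.2-fold higher, although its region at chr11:4257835-4258034 (6.69) was in the WT list alone.

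**Figure D5:**
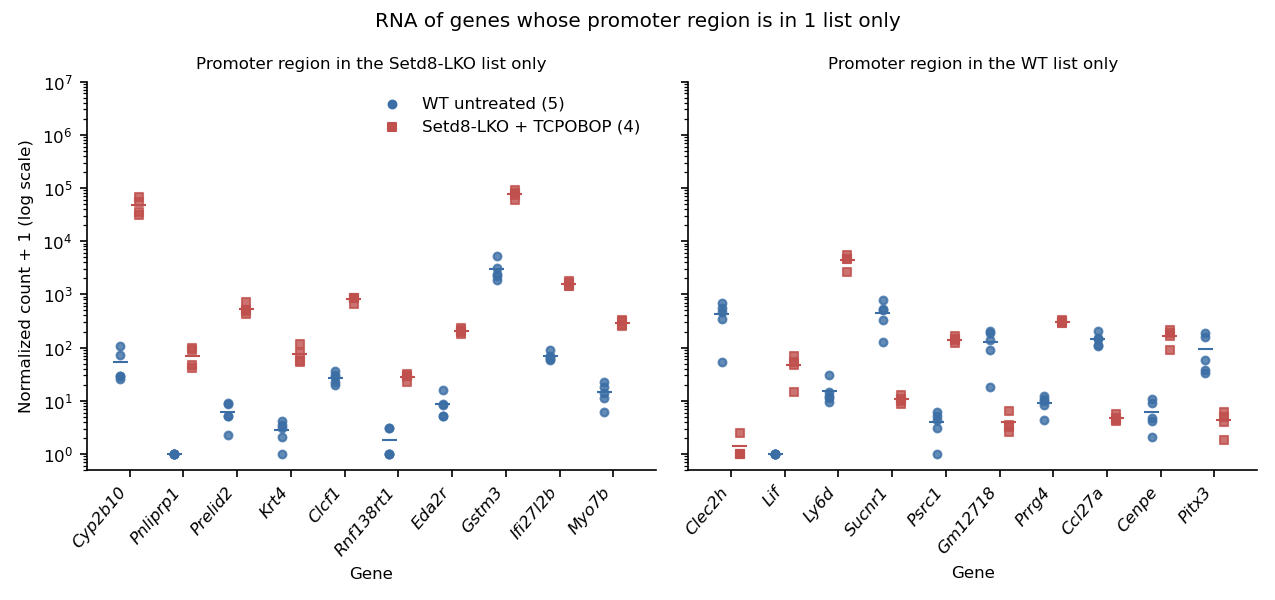
Normalized counts plus 1 (log axis) of the 10 genes of largest RNA change with a promoter region in the Setd8-LKO list alone (left) and in the WT list alone (right); points are the 5 WT and 4 Setd8-LKO plus TCPOBOP libraries and bars their means. All 10 genes on the left are higher in Setd8-LKO, while on the right 5 are lower and 5 higher.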

How the data were processed

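Nuclei of whole mouse livers were profiled by ATAC-seq and whole livers by RNA-seq, and the study added ChIP-seq or CUT&Tag of histone marks, CTCF, Smc3 and Lamin A/C. The authors trimmed the ATAC reads (Trimmomatic 0.39), aligned them to mm10 (HISAT2), removed duplicate, poorly mapped and blacklisted reads and called regions with MACS2 2.2.7.1. The deposited ATAC lists, in the broad format, give each region's fold enrichment over local background and its −log10 p as averages over the region. The lists of H3K27ac, CTCF and Smc3 were called with the same tool. Lamin A/C and H4K20me3 were deposited as SICER islands with a score, of which only positions were used. Equalising of read numbers is stated for the ChIP and CUT&Tag data and not for ATAC-seq. The RNA table holds raw counts and normalized counts (a score here, since the authors divided by their own factors) of the 3900 genes that the authors selected. Its fold changes, p-values and false discovery rates were not used, nor were 54 other columns of values per sample or the RNA table of treated WT livers.

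Regions were compared by overlap and annotated with GENCODE M21, with promoters within 1000 bp of any transcript start. Motifs were searched on both strands of RefSeq GRCm38 in 200 bp windows (python 3.11.15, pandas 2.3.3, scipy 1.17.1, pysam 0.24.0). RNA counts of 4 Setd8-LKO plus TCPOBOP and 5 untreated WT libraries, scaled by the authors' factors, were tested with edgeR 4.0.16 (R 4.3.3, quasi-likelihood test) where at least 4 libraries had at least 10 counts. P-values were adjusted by Benjamini-Hochberg over all 55450 annotated genes, and genes were called at an adjusted p under 0.05 and a log2 fold change of 1 or more in size. The model was tested on simulated data first. The methods describe the RNA samples as biological replicates taken on a single date. Runs A and B of the column headers were unevenly divided between the groups, and the reported model had no run term. P-values therefore measure the spread between livers of that date together with any difference between runs.

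Named were all members of the gene lists, the 5 strongest and 3 longest regions of each kind, the 3 windows of 1 Mb that gained and lost most (with ties), and the 10 genes of largest RNA change with non-overlapping libraries among called genes with a gained, and with a lost, promoter region alone. The text prints values for a selection of list members, chosen with their values known, and counts for each list. Values of a few list members are not reported here. Regions, lists and tests were chosen with earlier results of these data known. Alternatives were other overlaps, thresholds, promoter widths, motif windows, normalizations (TMM, DESeq2 1.42.0), filters, a replicate block and leaving out each library. A run term, and replicates 1 to 4 without the block, were added after seeing the data.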

Additional observations from a re-analysis of the deposited data

Results flagged for a closer look

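Among 84 groups of libraries of 43 named genes, 8 held a library set apart from the others of its group by Dixon's criterion, where chance gives about 1 in 20. In the Setd8-LKO plus TCPOBOP group, replicate 2 was high for Akr1b7 (1574 normalized counts, group median 1086). Replicate 3 of that group was low for Ccl2 (17.3, median 36.8) and high for Slco1a1 (1045, median 361). Replicate 4 was low for Clcf1 (647, median 846), and replicate 1 was the single library with any Clec2h count (1.53, median 0). In the untreated WT group, replicate 5 was high for Mki67 (64.3, median 19.1), and replicate 3 was high for Ly6d (29.8, median 11.1) and for Fos (65.8, median 20.0). In all of these genes except Fos the groups did not overlap.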

How the results depend on the processing

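Of 165 alternatives, 129 left the value within the limits set for it, 36 moved it and 0 turned the sign of a single value, although the balance of higher and lower calls turned with DESeq2; 32 of the 36 were among the 57 alternatives for the region lists. The share of WT regions kept was 67.3% with a reciprocal overlap of 50%, 73.8% with regions within 500 bp counted as shared, 70.2% at a −log10 p of at least 20 and 78.5% with equal numbers of regions. The median length was 304 bp (WT) and 274 bp (Setd8-LKO) at a −log10 p of at least 20, and with equal numbers it was 308 bp in WT and the median log2 fold enrichment ratio was −0.11. The share of kept regions at promoters was 41.0% with the reciprocal overlap, 38.3% within 500 bp, 46.8% within 2000 bp and 37.9% for protein-coding genes. For lost regions these were 35.4%, 27.3%, 37.9% and 28.4%, and 33.9% at the stricter −log10 p. For gained regions they were 27.8%, 11.2%, 23.1% and 11.7%. H3K27ac of the same genotype lay on 47.9% of kept, 37.5% of lost and 29.9% of gained regions with the reciprocal overlap, on 57.1%, 39.8% and 25.6% within 500 bp, and on 35.3% of lost regions at the stricter −log10 p. AP-1 letters were in 11.5% of kept, 6.72% of lost and 16.6% of gained regions searched whole, and in 12.3% of gained regions with the reciprocal overlap. In each of these settings gained regions held fewest promoters and most AP-1 letters where all 3 kinds are given.

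In RNA, DESeq2 called 274 genes with kept, 59 with lost and 41 with gained promoter regions higher and 655, 160 and 23 lower, so that lower calls outnumbered higher ones for kept and lost. Replicate numbers did not pair the samples: the deviations of same-numbered libraries correlated at −0.011, −0.112, −0.158 and 0.065, and 1 of 4 correlated best with its own number. With a replicate block on replicates 1 to 4, 1292 genes were called higher and 929 lower, and 101 genes with lost promoter regions higher, against 1776 and 1186 for the same libraries without the block. With the run as a term the calls were 1774 and 1193. Leaving out 1 library in turn gave 477 to 591 higher and 517 to 574 lower calls for kept, 111 to 145 and 126 to 143 for lost, and 57 to 71 and 16 to 19 for gained promoter regions. Without a Setd8-LKO library, genes expressed in that group alone no longer reach 10 counts in 4 libraries, and 3426 to 3438 genes were tested. The depth of the ATAC-seq libraries is unknown, so no limit of detection can be given for a region absent from a list, and the cause of the differences between settings was not tested.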

Other observations

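Regions far from any protein-coding gene were also unlike in the 3 kinds. Over 100 kb from the nearest protein-coding start lay 7.49% of kept, 8.94% of lost and 12.3% (11.2 to 13.5%) of gained regions. Of these 413 gained regions, 13.6% (10.4 to 17.2%) had a nearest gene called higher in RNA and 4.84% one called lower, beside 11.2% and 7.89% for lost and 12.4% and 5.89% for kept regions. Lamin A/C islands of the Setd8-LKO group contained 1.18% of kept Setd8-LKO, 1.74% of lost and 2.92% (2.38 to 3.55%) of gained regions.

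At promoters the AP-1 letters were in 10.5% (8.07 to 13.5%) of gained, 3.92% of kept and 3.09% of lost windows, against 5.65%, 5.51% and 5.72% of windows moved by 2000 bp. Kept regions outside promoters that held them overlapped WT H3K27ac in 21.3% (18.9 to 23.8%), against 26.5% (25.7 to 27.4%) of those without. Their nearest gene within 100 kb was called higher in RNA for 12.3% (10.3 to 14.6%) and 9.05% (8.48 to 9.66%), and lower for 7.01% (5.46 to 8.83%) and 10.7% (10.1 to 11.3%).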
